A study of Mus musculus with 11 samples.

Results

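Mouse genes of coreceptors and early T-cell stages were followed through sorted thymocytes of 5 genotypes: Cd4, Cd8a, Cd8b1, Cd24a and Ptcra. They were chosen by symbol, before any filter on low values, and make up 5 of the 55870 genes listed in either of 2 count tables. Cd4, Cd8a, Cd8b1 and Cd24a passed the filter for testing in both tables, and Ptcra passed it in neither, so that it is described by its counts. Cd8b1 at postnatal day 0 and Cd24a at both ages passed only through the +/+ libraries, where they are high, so that a difference was built into their passing.

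CD4 and CD8 are the coreceptors with which the T-cell receptor (TCR) reads antigen held by MHC molecules. CD4 is a single chain, whereas CD8 on thymocytes of the αβ lineage is a pair of the α chain (Cd8a) and the β chain (Cd8b1), and an αα form without β is known from intestinal lymphocytes and some innate cells. Early thymocytes lack both coreceptors, test a new TCRβ chain by pairing it with the invariant pre-TCR α chain (Ptcra), and then gain CD4 and CD8 together. CD24, a small glycosylated surface protein encoded by Cd24a, is high on most immature thymocytes and low on mature ones.

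Thymocytes without surface CD24 and TCRβ were purified by flow sorting, and their RNA was sequenced by a full-length total RNA method. At postnatal day 0 there were 2 libraries each of Bcl11b D/N440K, Bcl11b +/N440K and Bcl11b +/+ mice, in which the N440K allele encodes an altered form of the zinc-finger factor Bcl11b and the allele D is not explained in the labels. At postnatal day 7 there were 3 libraries whose label reads Tcf7 F/F:Vav1-Cre and 2 of Tcf7 +/+. Tcf7 encodes TCF-1, a Wnt-pathway and T-lineage factor, and Vav1-Cre cuts floxed (F) alleles in blood-forming cells at large, not in thymocytes alone. Neither Cre alone nor F/F without Cre was among the groups, and the labels do not say whether libraries of a group came from separate animals, so that p-values measure the spread between libraries, which may be technical. The design sets each altered genotype against the +/+ of its own age, and the series title gives its subject as interference of mutant Bcl11b with Bcl11a.

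Libraries held 999381 to 1246272 counts at day 0 and 1273997 to 1842717 at day 7, with 17544 to 20480 genes detected. The most alike pair of replicates, Bcl11b D/N440K, still differed by more than sampling noise (chi-square per degree of freedom 1.14), and the least alike pair was Tcf7 +/+ (4.94). Tcf7 itself stood at 846.7, 658.3 and 694.3 CPM (counts scaled to a common library size) under the label Tcf7 F/F:Vav1-Cre, against 552.2 and 593.5 CPM in Tcf7 +/+. Counts over the whole gene were thus not lower under the deletion label and do not check it, since the deleted part is not given. Bcl11b stood at 152 and 204 CPM in D/N440K and at 185 and 225 CPM in +/N440K, against 641.4 and 505.6 CPM in Bcl11b +/+. All RNA was from bulk sorts, in which fewer cells of a type and less RNA per cell cannot be told apart.

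All 4 tested genes were lower in both N440K genotypes than in Bcl11b +/+. In libraries of the label Tcf7 F/F:Vav1-Cre, Cd8a, Cd8b1 and Cd24a were also lower than in Tcf7 +/+, whereas Cd4 was higher. For Cd8b1 at day 0 and Cd24a at both ages a difference was built into passing the filter. Their falls are therefore not to be weighed against the shares of genes called, unlike those of Cd4 and Cd8a. A gene was called at an edgeR adjusted p under 0.05, and the share of all tested genes called was 12.4% for D/N440K over Bcl11b +/+ (6.10% higher, 6.31% lower), 10.1% for +/N440K over Bcl11b +/+ (4.79% higher, 5.30% lower) and 23.2% for Tcf7 F/F:Vav1-Cre over Tcf7 +/+ (12.0% higher, 11.1% lower). Both Bcl11b comparisons share the 2 Bcl11b +/+ libraries, so they are not independent of each other.

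**Figure D1:**
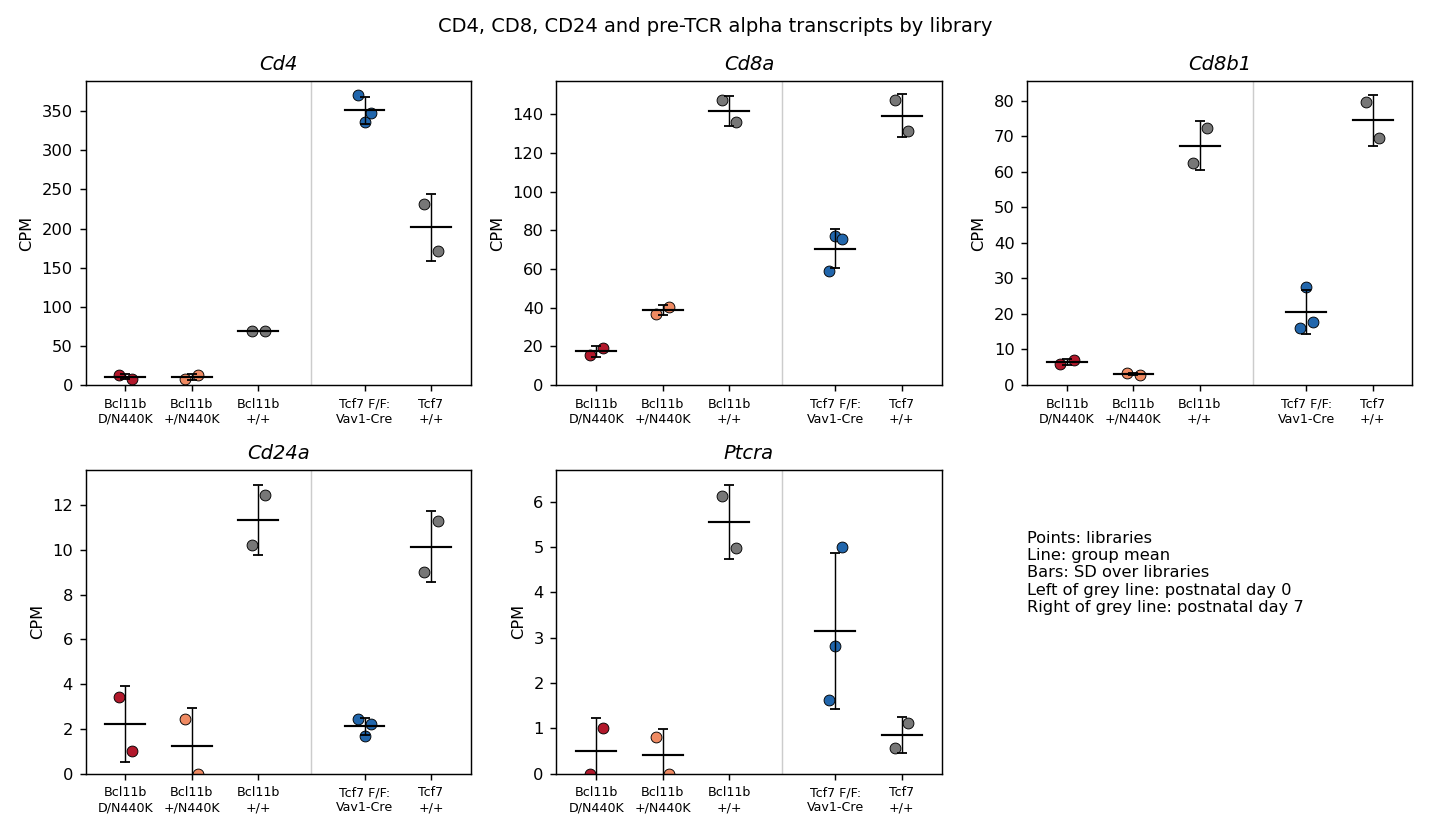
Normalised counts (CPM, vertical axis, a scale of its own in each panel) of the 5 genes in each of the 11 libraries, with group means (lines) and SD (bars); postnatal day 0 is left of the grey line and day 7 right of it. Cd4, Cd8a, Cd8b1 and Cd24a sat lower in both N440K groups than in Bcl11b +/+, while Cd4 alone of the 4 sat higher in Tcf7 F/F:Vav1-Cre than in Tcf7 +/+.

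Cd4 (ENSMUSG00000023274, GRCm38 chromosome 6, 124864692 to 124888221, minus strand, protein coding) encodes the coreceptor for MHC class II. It stood at 12.8 and 8.14 CPM in D/N440K (15 and 8 reads) and at 7.34 and 12.8 CPM in +/N440K (9 and 13 reads), against 69.6 and 68.9 CPM in Bcl11b +/+ (68 and 83 reads). Both N440K groups lay far below Bcl11b +/+ and overlapped each other. The fall was 6.42-fold in D/N440K (log2 fold change -2.68 ± 0.281 SE, edgeR adjusted p = 1.34e-09) and 6.96-fold in +/N440K (-2.80 ± 0.283, edgeR adjusted p = 1.17e-09). D/N440K over +/N440K gave 0.12, with a 95% interval of -0.75 to 0.99 on the log2 scale (edgeR adjusted p = 0.985).

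At day 7 the direction was the other way. Cd4 stood at 370.4, 335.6 and 347.2 CPM under the label Tcf7 F/F:Vav1-Cre, against 231.6 and 171.3 CPM in Tcf7 +/+. The lowest of the 3 libraries was above the higher Tcf7 +/+ library. The rise was 1.74-fold (log2 fold change 0.80 ± 0.143, edgeR adjusted p = 5.17e-04), and it kept its call without any single library (0.60 to 1.04, highest edgeR adjusted p = 0.00733).

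The effects of the 2 genotypes on Cd4 were set against each other in 1 edgeR model over all 11 libraries, as the log2 fold change of D/N440K over Bcl11b +/+ minus that of Tcf7 F/F:Vav1-Cre over Tcf7 +/+. The difference was -3.48 ± 0.316 (edgeR adjusted p = 1.32e-08), in a test that called 11.5% of 12249 genes (5.66% above and 5.83% below 0). Age and table differ with the gene altered, so genotype, age and table cannot be told apart in it.

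The 8 markers of group 3 innate lymphoid and lymphoid tissue inducer cells, some of which carry CD4, summed to 131 to 181 CPM in D/N440K and 237 to 249 in +/N440K, against 555 to 630 in Bcl11b +/+, with Il22 and Il17a at 0 in both N440K groups. They summed to 1671 to 1870 CPM in Tcf7 F/F:Vav1-Cre, where Il22 was at 0, against 733 to 786 in Tcf7 +/+. Of the tested markers 1 rose and 5 fell of 6 in D/N440K, 5 of 6 fell in +/N440K, and 5 rose and 1 fell of 7 in Tcf7 F/F:Vav1-Cre. The 6 markers of group 2 innate lymphoid cells summed to 105 to 129 CPM in D/N440K and 166 to 192 in +/N440K, against 246 to 267 in Bcl11b +/+, with Areg at 0 in all 3 groups. They summed to 507 to 599 CPM in Tcf7 F/F:Vav1-Cre, against 229 to 261 in Tcf7 +/+, where Areg was at 0. Of 5 tested, 3 fell in D/N440K, 1 fell in +/N440K and 4 rose in Tcf7 F/F:Vav1-Cre. The summed levels of both lists were thus lower where Cd4 was lower and higher where Cd4 was higher, and their part in the Cd4 result was not tested.

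Cd8a (ENSMUSG00000053977, chromosome 6, 71373427 to 71379173, plus strand, protein coding) encodes the chain found in both forms of the MHC class I coreceptor. Its promoter is shown because, of the 5 genes, only Cd8a and Ptcra had a promoter sequence in the reference set used here. RefSeq gives these 300 bases (GRCm38.p6, chr6:71373177-71373476, plus strand, from 250 before to 50 from the annotated start), with E-boxes in capitals. An E-box (CANNTG) is the site read by E proteins such as those of Tcf3 and Tcf12.
Cd8a promoter: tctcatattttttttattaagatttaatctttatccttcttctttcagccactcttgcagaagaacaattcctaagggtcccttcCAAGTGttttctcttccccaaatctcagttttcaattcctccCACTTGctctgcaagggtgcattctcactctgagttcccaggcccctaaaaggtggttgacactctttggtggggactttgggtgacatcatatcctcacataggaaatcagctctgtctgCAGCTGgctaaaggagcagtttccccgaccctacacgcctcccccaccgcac
The 3 E-boxes are CAAGTG at -165, CACTTG at -123 and CAGCTG at -2 from the start. Of 32851 mouse promoters of this length 72.3% hold an E-box, with a median of 1. Searched on both strands, the window has no TGTGGT (a RUNX site, in 16.8% of promoters), CTTTGA (a TCF/LEF site, in 16.0%) or TGACCA (a site of BCL11A, in 13.6%), which says only that these letters are not in it.

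Cd8a stood at 15.4 and 19.3 CPM in D/N440K (18 and 19 reads) and at 36.7 and 40.5 CPM in +/N440K (45 and 41 reads), against 147.3 and 136.2 CPM in Bcl11b +/+ (144 and 164 reads). The 3 genotypes formed 3 steps without overlap. The fall was 8.16-fold in D/N440K (log2 fold change -3.03 ± 0.20, edgeR adjusted p = 6.89e-15) and 3.67-fold in +/N440K (-1.88 ± 0.166, edgeR adjusted p = 3.74e-11).

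D/N440K was itself 2.22-fold below +/N440K in Cd8a (log2 fold change -1.15 ± 0.265, edgeR adjusted p = 0.0264). Of all tested genes 0.532% were called between these genotypes (0.284% higher, 0.247% lower in D/N440K), and of the 4 tested members Cd8a was called. Leaving out +/N440K replicate 2 (edgeR adjusted p = 0.105), D/N440K replicate 1 (0.358) or D/N440K replicate 2 (0.0646) ended that call, as did DESeq2 (DESeq2 adjusted p = 0.492) and limma-voom (limma adjusted p = 0.0576). Its size stayed between -1.31 and -0.99 with any library left out.

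At day 7, Cd8a stood at 59.0, 76.8 and 75.7 CPM under the label Tcf7 F/F:Vav1-Cre, against 147.1 and 131.3 CPM in Tcf7 +/+. No library of one group reached the range of the other. The fall was 1.96-fold (log2 fold change -0.97 ± 0.161, edgeR adjusted p = 2.66e-04). It was smaller than in D/N440K, with a difference of effects of -2.06 ± 0.278 (edgeR adjusted p = 6.54e-06).

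Cd8b1 (ENSMUSG00000053044, chromosome 6, 71322788 to 71337494, plus strand, protein coding) encodes the β chain and ends 35932 bases before Cd8a starts. It stood at 6.0 and 7.12 CPM in D/N440K (7 reads each) and at 3.26 and 2.96 CPM in +/N440K (4 and 3 reads), against 62.4 and 72.2 CPM in Bcl11b +/+ (61 and 87 reads). The order of the N440K groups was thus the opposite of that for Cd8a, with +/N440K lowest. The fall was 10.2-fold in D/N440K (log2 fold change -3.35 ± 0.311, edgeR adjusted p = 5.70e-11) and 20.9-fold in +/N440K (-4.39 ± 0.36, edgeR adjusted p = 3.97e-12). Cd8b1 passed the filter at this age only through the Bcl11b +/+ libraries, so a difference was built into its being tested. Although the values of D/N440K and +/N440K did not overlap, their difference of 1.03 on the log2 scale (95% interval -0.23 to 2.29) did not pass the test (edgeR adjusted p = 0.763).

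In libraries of the label Tcf7 F/F:Vav1-Cre, Cd8b1 stood at 16.2, 27.7 and 17.8 CPM, against 79.5 and 69.3 CPM in Tcf7 +/+. All 3 libraries were far below both Tcf7 +/+ libraries. The fall was 3.56-fold (log2 fold change -1.83 ± 0.231, edgeR adjusted p = 1.57e-05). Against the fall in D/N440K the difference of effects was -1.53 ± 0.432 (edgeR adjusted p = 0.0189), a call lost without Bcl11b +/+ replicate 2 (0.0779), D/N440K replicate 1 (0.144) or 2 (0.0754), or Tcf7 F/F:Vav1-Cre replicate 2 (0.0624). Of the 50-base stretches in annotated Cd8b1 transcripts, 6.28% also occur, on either strand, in transcripts of other genes, against 0.081% for Cd8a.

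**Figure D2:**
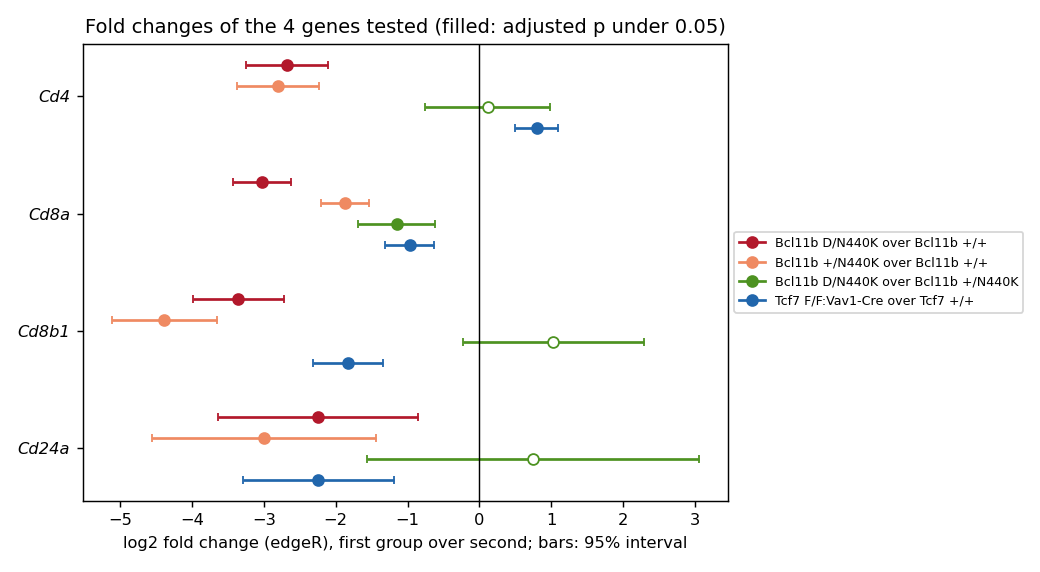
Log2 fold changes (horizontal axis) of the 4 tested genes from edgeR with 95% intervals, for the 4 comparisons named in the legend, first group over second; filled points passed an adjusted p of 0.05. Cd4 lies left of 0 for both N440K genotypes against Bcl11b +/+ and right of 0 (0.80) for Tcf7 F/F:Vav1-Cre over Tcf7 +/+, and Cd8a (-1.15) is the 1 filled point of D/N440K over +/N440K.

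The balance of the CD8 chains was read within each library, as the share of Cd8b1 in the reads of Cd8a and Cd8b1 together. It was 28.0% (exact 95% interval 12.1 to 49.4) and 26.9% (11.6 to 47.8) in D/N440K, 8.16% (2.27 to 19.6) and 6.82% (1.43 to 18.7) in +/N440K, and 29.8% (23.6 to 36.5) and 34.7% (28.8 to 40.9) in Bcl11b +/+. The shares in +/N440K were the lowest of all 11 libraries, and their intervals ended below those of both Bcl11b +/+ libraries, while the intervals of D/N440K were wide enough to hold the Bcl11b +/+ shares. An exact permutation test of 2 against 2 libraries cannot go below a two-sided p of 0.333. At day 7 the share was 21.5% (13.7 to 31.2), 26.5% (20.3 to 33.5) and 19.0% (13.4 to 25.8) under the label Tcf7 F/F:Vav1-Cre, against 35.1% (30.4 to 40.0) and 34.6% (29.6 to 39.7) in Tcf7 +/+. All 3 were below both Tcf7 +/+ libraries, in a design whose smallest exact permutation p is 0.2. The intervals cover counting error only.

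**Figure D3:**
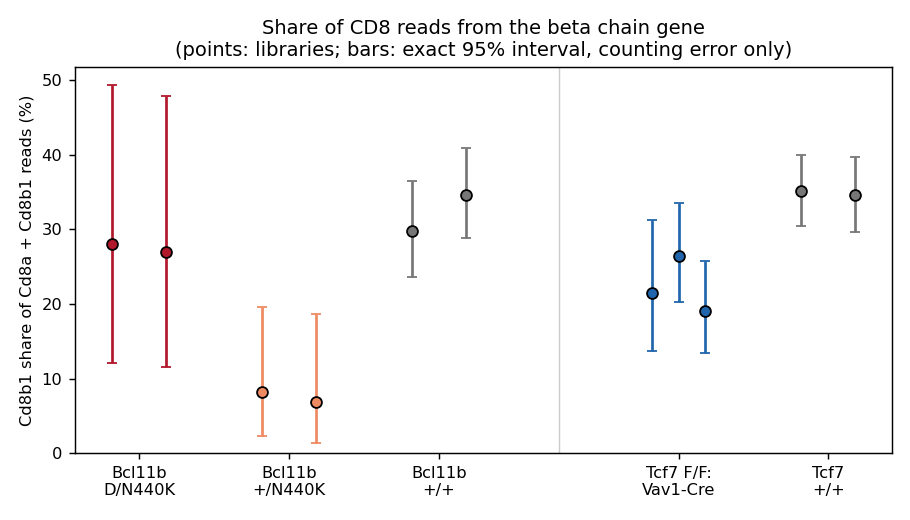
Share of Cd8b1 in the summed Cd8a and Cd8b1 reads (vertical axis, percent) in each library, with exact 95% binomial intervals (bars); day 0 is left of the grey line and day 7 right of it. The +/N440K libraries (8.16% and 6.82%) lie below every other library.

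Cd24a (ENSMUSG00000047139, chromosome 10, 43578284 to 43584265, plus strand, protein coding) encodes the surface protein against which the cells were sorted. It stood at 3.43 and 1.02 CPM in D/N440K (4 reads and 1 read) and at 2.45 and 0 CPM in +/N440K (3 reads and none), against 10.2 and 12.5 CPM in Bcl11b +/+ (10 and 15 reads). Levels were low in every library, the filter was passed through the Bcl11b +/+ libraries alone, and the N440K groups lay below Bcl11b +/+ without overlap. The fall was called in D/N440K (log2 fold change -2.25 ± 0.686, edgeR adjusted p = 0.0186) and in +/N440K (-2.99 ± 0.771, edgeR adjusted p = 0.00488). The summed reads, 3 in +/N440K against 25 in Bcl11b +/+, gave a ratio of 0.117 per effective library size (exact 95% interval 0.0226 to 0.383).

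These few reads set how firmly the Cd24a change can be stated. With D/N440K the call was lost without either Bcl11b +/+ library (edgeR adjusted p = 0.0836 and 0.226) or either D/N440K library (0.0668 and 0.244), and without D/N440K replicate 1 the fold change was -3.35. With +/N440K it was lost without Bcl11b +/+ replicate 2 (0.117) or +/N440K replicate 2 (0.129), and without +/N440K replicate 1 the group held no read, so that the fitted -6.63 is no bound. DESeq2 called neither fall (DESeq2 adjusted p = 0.356 for D/N440K and 0.205 for +/N440K).

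At day 7 the values were 2.43, 1.70 and 2.23 CPM under the label Tcf7 F/F:Vav1-Cre (3, 3 and 4 reads), against 9.02 and 11.3 CPM in Tcf7 +/+ (16 and 20 reads). All 3 libraries lay below both Tcf7 +/+ libraries, through which alone Cd24a passed the filter at this age. The fall was 4.73-fold (log2 fold change -2.24 ± 0.499, edgeR adjusted p = 0.00286) and was called without any single library (highest edgeR adjusted p = 0.0359). The effect of D/N440K on Cd24a and that of Tcf7 F/F:Vav1-Cre differed by -0.02, with a 95% interval of -2.01 to 1.97, which allows large differences either way (edgeR adjusted p = 1.00). Of the 50-base stretches in annotated Cd24a transcripts, 2.75% also occur in Gm6212.

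Ptcra (ENSMUSG00000036858, chromosome 17, 46755663 to 46763712, minus strand, protein coding) encodes the invariant chain that pairs with TCRβ, and is known as a target of E proteins and Notch. RefSeq gives its promoter on the minus strand (GRCm38.p6, chr17:46763663-46763962), again with E-boxes in capitals, because E-box control of Ptcra is textbook knowledge.
Ptcra promoter: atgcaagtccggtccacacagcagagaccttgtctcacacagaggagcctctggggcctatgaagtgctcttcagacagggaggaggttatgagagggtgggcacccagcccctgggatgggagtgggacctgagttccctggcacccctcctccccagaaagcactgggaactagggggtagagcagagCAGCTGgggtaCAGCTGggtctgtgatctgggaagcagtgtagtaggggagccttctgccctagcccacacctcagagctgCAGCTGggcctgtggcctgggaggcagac
All 3 E-boxes are CAGCTG, at -60, -49 and 21 from the annotated start, and the same RUNX, TCF/LEF and BCL11A letters were not found.

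Ptcra had 0 and 1 read in D/N440K and 1 and 0 reads in +/N440K, against 6 reads in each Bcl11b +/+ library. In CPM this was 0 and 1.02 in D/N440K and 0.816 and 0 in +/N440K, against 6.14 and 4.98 in Bcl11b +/+. Both N440K groups were below Bcl11b +/+ without overlap. The ratio of summed reads was 0.0846 for D/N440K (exact 95% interval 0.00198 to 0.572) and 0.0812 for +/N440K (0.0019 to 0.549). On the log2 scale this was -3.56 for D/N440K, and -2.43 without D/N440K replicate 1. It was -3.62 for +/N440K, and -2.75 without +/N440K replicate 2. Without the other library of either N440K group no read was left. With 1 read in each N440K group no fold between them is given. When the filter on low counts was dropped, neither fall passed the test (edgeR adjusted p = 0.0723 for D/N440K and 0.0736 for +/N440K).

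At day 7 Ptcra had 2, 5 and 9 reads under the label Tcf7 F/F:Vav1-Cre (1.62, 2.83 and 5.01 CPM), against 1 and 2 reads in Tcf7 +/+ (0.563 and 1.13 CPM). The 3 libraries lay above both Tcf7 +/+ libraries. The ratio of summed reads, 16 against 3, was 3.94 (exact 95% interval 1.13 to 21.1, counting error only). On the log2 scale this was 1.98, with a range from 1.46 without Tcf7 F/F:Vav1-Cre replicate 3 to 2.56 without Tcf7 +/+ replicate 2, and without the filter the test did not pass (edgeR adjusted p = 0.226). Across the 5 genes, the values of an altered genotype and its +/+ did not overlap for 5 of 5 in each case. Of all tested genes this held for 51.0% in D/N440K, 47.8% in +/N440K and 48.8% in Tcf7 F/F:Vav1-Cre. Between D/N440K and +/N440K it held for 2 of the 5, Cd8a and Cd8b1, beside 35.4% of all tested genes.

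Per kilobase of merged exons, the 5 genes took different orders in the 5 groups. In D/N440K, Cd8a (4.78 ± 0.763 CPM per kb, SD) and Cd8b1 (4.42 ± 0.539) overlapped at the top and Cd4 (2.60 ± 0.825) followed. In +/N440K, Cd8a (10.6 ± 0.728) stood alone, above Cd4 (2.50 ± 0.962) and Cd8b1 (2.10 ± 0.145), which overlapped. In Bcl11b +/+, Cd8b1 (45.4 ± 4.68) came before Cd8a (39.0 ± 2.17) and Cd4 (17.2 ± 0.115) without overlap. Cd24a and Ptcra overlapped at the bottom of all 3 groups.

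In libraries of the label Tcf7 F/F:Vav1-Cre, Cd4 (87.1 ± 4.39 CPM per kb, n = 3) was first, well above Cd8a (19.4 ± 2.74) and Cd8b1 (13.9 ± 4.20), and Ptcra (2.46 ± 1.34) stood above Cd24a (0.82 ± 0.146). In Tcf7 +/+, Cd8b1 (50.2 ± 4.83) and Cd4 (50.0 ± 10.6) overlapped, Cd8a (38.3 ± 3.06) came next, and Cd24a (3.93 ± 0.619) stood above Ptcra (0.659 ± 0.311). The level of Cd4 over that of Cd8a, per kilobase and library, averaged 0.566 ± 0.263 in D/N440K, 0.233 ± 0.0747 in +/N440K and 0.441 ± 0.0216 in Bcl11b +/+ (SD, n = 2 each). It averaged 4.58 ± 0.941 in Tcf7 F/F:Vav1-Cre (n = 3), against 1.30 ± 0.172 in Tcf7 +/+ (n = 2).

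Set among all tested genes of the same library by level per kilobase, Cd8b1 stood at percentiles 18.1 and 22.4 in D/N440K and 7.07 and 6.79 in +/N440K, against 89.6 and 91.8 in Bcl11b +/+. Cd4 was at percentiles 97.7 to 98.0 in the 3 Tcf7 F/F:Vav1-Cre libraries, against 95.5 and 92.6 in Tcf7 +/+. Cd24a did not pass percentile 24.3 in any of the 11 libraries.

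Genes that work with these 5 were read from lists of signalling partners, regulators, the pre-TCR to double-positive stage and the early double-negative stage. The lists were chosen with earlier results of these data known, so counts within them are description only. Of 14 partners of the pre-TCR and coreceptors, 9 fell and 5 were not called in D/N440K (median log2 fold change -0.44), and 8 fell and 6 were not called in +/N440K (-0.40). The median of all tested genes was 0.00 in both. Cd247, the ζ signalling chain, stood at 51.4 ± 3.61 CPM in D/N440K and 63.6 ± 2.209 in +/N440K, against 138.5 ± 4.90 in Bcl11b +/+ (log2 fold change -1.43 in D/N440K, edgeR adjusted p = 3.15e-09, and -1.13 in +/N440K, edgeR adjusted p = 2.65e-07). Lat, an adaptor downstream of the receptor, fell by 1.05 on the log2 scale in D/N440K and fell by 0.87 in +/N440K. Lck, the kinase bound to CD4 and CD8 tails, had log2 fold changes of 0.01 in D/N440K (edgeR adjusted p = 0.979) and 0.02 in +/N440K (edgeR adjusted p = 0.956). It is named after its values were seen.

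Between D/N440K and +/N440K, 1 of the 14 partners rose and 1 fell. Cd3g was at 172.6 ± 0.625 CPM in D/N440K, against 120.4 ± 2.80 in +/N440K (log2 fold change 0.52, edgeR adjusted p = 0.0309), and Cd3e at 232.9 ± 2.56 CPM in D/N440K against 306.8 ± 11.4 in +/N440K (-0.39, edgeR adjusted p = 0.0361). In libraries of the label Tcf7 F/F:Vav1-Cre, 8 of the 14 partners fell and 6 were not called (median -0.59, against -0.01 over all tested genes). Cd3d, a CD3 chain, was at 1.48 ± 0.316 CPM there, against 116.4 ± 14.8 CPM in Tcf7 +/+ (log2 fold change -6.25, edgeR adjusted p = 2.67e-10). Cd3d at that level could pass the filter only through Tcf7 +/+, so a difference was built into its being tested. Cd3g fell by 1.67 on the log2 scale, and Trac, the TCRα constant region, fell by 3.93.

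**Figure D4:**
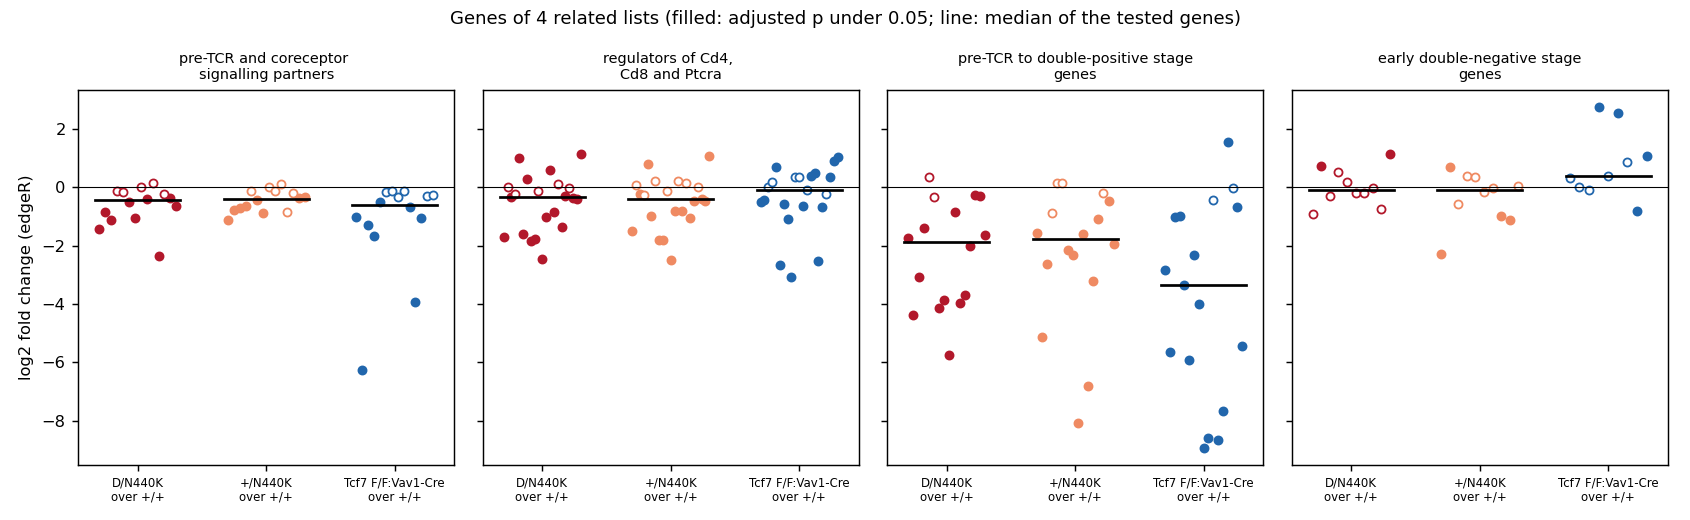
Log2 fold changes (vertical axis, edgeR) of the tested genes of 4 lists in 3 comparisons with the +/+ of the same age; filled points passed an adjusted p of 0.05 and black lines are medians. The pre-TCR to double-positive list has its medians at -1.87, -1.76 and -3.36, the lowest of the 4 lists in each comparison.

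Among 21 regulators of Cd4, Cd8 and Ptcra, 4 rose, 12 fell and 5 were not called in D/N440K (median -0.31), and 2 rose, 12 fell and 7 were not called in +/N440K (-0.39). Lef1, a partner of TCF-1, stood at 93.2 ± 5.10 CPM in D/N440K and 97.1 ± 2.28 in +/N440K, against 336.8 ± 11.3 in Bcl11b +/+ (log2 fold change -1.85 in D/N440K, edgeR adjusted p = 1.55e-15, and -1.79 in +/N440K, edgeR adjusted p = 3.09e-15). Notch3, a Notch receptor of early thymocytes, fell by 2.44 on the log2 scale in D/N440K and fell by 2.48 in +/N440K. Between D/N440K and +/N440K the regulator of lowest p was Id3, an inhibitor of E proteins, at 43.1 ± 12.5 CPM in D/N440K against 66.2 ± 15.2 CPM in +/N440K (log2 fold change -0.62), which did not pass (edgeR adjusted p = 0.233). In Tcf7 F/F:Vav1-Cre, 6 rose, 9 fell and 6 were not called (median -0.10), with Myb at -3.08, Id3 at -2.67 and Satb1, a chromatin organiser of thymocytes, at -2.52.

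Some regulators known for one coreceptor moved in the same or the opposite direction as Cd4; these are named after their values were seen. Zbtb7b, which encodes ThPOK of the CD4 lineage, rose in D/N440K (log2 fold change 1.15), in +/N440K (1.08) and in Tcf7 F/F:Vav1-Cre (1.06). Cd4 itself thus was lower in 2 of these genotypes and higher in the third while Zbtb7b was higher in all 3. Runx1, which takes part in silencing Cd4 in early thymocytes, fell in D/N440K (-0.84) and +/N440K (-0.80) and rose in Tcf7 F/F:Vav1-Cre (0.38). Tox, needed for the CD4 lineage, fell in D/N440K (-0.39) and +/N440K (-0.48) and rose in Tcf7 F/F:Vav1-Cre (0.91). Others of the list did not follow Cd4 in the N440K genotypes. Gata3 (-0.23 in D/N440K, -0.26 in +/N440K) and Runx3 (0.11 and 0.16) were not called in either. Patz1 fell in both (-1.02 and -0.81). The part of any of these regulators in the Cd4 result was not tested. The E protein genes Tcf3 and Tcf12 stood at -0.03 (edgeR adjusted p = 0.92) and -0.31 (0.0172) in D/N440K, at 0.01 (0.983) and -0.45 (4.58e-04) in +/N440K, and at -0.23 (0.278) and -0.65 (7.41e-04) in Tcf7 F/F:Vav1-Cre.

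Most tested genes of the pre-TCR to double-positive list, chosen with earlier results known, were lower in both N440K genotypes. Of 16 tested of 18, 14 fell and 2 were not called in D/N440K (median -1.87), and 12 fell and 4 were not called in +/N440K (-1.76). Of all tested genes, 6.31% were called lower in D/N440K and 5.30% in +/N440K. Genes of the list near 0 in both N440K groups passed the filter only through Bcl11b +/+. A difference was built into their being tested, and the counts of falls include them. Ccr9, a homing receptor of thymocytes, stood at 62.5 ± 12.1 CPM in D/N440K and 86.1 ± 15.6 in +/N440K, against 534.6 ± 52.7 in Bcl11b +/+ (log2 fold change -3.07 in D/N440K and -2.61 in +/N440K). Between the N440K genotypes Rag1, of the recombinase that cuts TCR genes, was at 14.0 ± 7.62 CPM in D/N440K, against 1.72 ± 1.03 in +/N440K (log2 fold change 2.84, edgeR adjusted p = 0.0142). Cd5, a surface inhibitor of TCR signals, was at 3.75 ± 0.456 CPM in D/N440K against 15.2 ± 0.78 in +/N440K (-2.00, edgeR adjusted p = 0.0324). Of the 16, 13 were not called between them.

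In Tcf7 F/F:Vav1-Cre, 14 of 17 tested fell, 1 rose and 2 were not called (median -3.36), beside 11.1% of all tested genes called lower. Rag1 was at 0.832 ± 0.288 CPM, against 363.2 ± 50.7 in Tcf7 +/+ (log2 fold change -8.65, edgeR adjusted p = 1.87e-12), Arpp21 fell by 5.63, and Cd28, a costimulatory receptor, fell by 5.92. At that level Rag1 could pass the filter only through Tcf7 +/+, so a difference was built into its being tested. Any gene of the list as low as this shares that limit, and the count of falls includes such genes. In D/N440K the change of Cd28 was -0.34 and did not pass (edgeR adjusted p = 0.244), and the difference of the effects on Cd28 was 5.58 (edgeR adjusted p = 8.67e-10).

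Of 10 early double-negative genes, 2 rose and 8 were not called in D/N440K (median -0.09), and 1 rose, 3 fell and 6 were not called in +/N440K (-0.09). Cd44, an adhesion receptor of the earliest stages, rose in D/N440K (log2 fold change 0.75, edgeR adjusted p = 9.36e-08) and in +/N440K (0.69, edgeR adjusted p = 6.26e-07). Among the 3 that fell in +/N440K were Cd34 (-2.27, edgeR adjusted p = 2.60e-04) and Mef2c (-1.12, edgeR adjusted p = 0.0136). In Tcf7 F/F:Vav1-Cre, 3 of 9 tested rose, 1 fell and 5 were not called (median 0.38). Kit, the stem cell factor receptor, was at 347.1 ± 19.7 CPM, against 59.2 ± 3.20 in Tcf7 +/+ (2.55), and Il2ra, which encodes CD25, at 329.7 ± 22.6 CPM against 48.2 ± 4.39 in Tcf7 +/+ (2.77).

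Markers of other cells that such a sort can hold also moved, and their part in the results was not tested. Of 10 dendritic cell markers, 3 of 9 tested rose in Tcf7 F/F:Vav1-Cre, where they summed to 2495 to 2716 CPM, against 1824 to 2547 in Tcf7 +/+, ranges that overlap. Of 8 myeloid markers 2 of 5 tested rose there, with sums of 1092 to 1250 CPM, against 432 to 758 in Tcf7 +/+, and Elane at 0 in both groups. Myeloid sums were 319 to 329 CPM in D/N440K and 230 to 272 in +/N440K, against 135 to 169 in Bcl11b +/+. Sums of 7 γδ T markers were 2284 to 2328 CPM in D/N440K and 2465 to 2535 in +/N440K, against 3432 to 3878 in Bcl11b +/+. Of the 7, 6 fell in D/N440K and 5 fell in +/N440K. At day 7 the γδ sums were 1854 to 2201 CPM in Tcf7 F/F:Vav1-Cre, against 2007 to 2426 in Tcf7 +/+, ranges that overlap. Of the 7, 1 rose and 3 fell there. Sums of 7 NK and ILC1 markers were 1329 to 1368 CPM in D/N440K and 1078 to 1145 in +/N440K, against 461 to 536 in Bcl11b +/+, and 7 of 7 rose in D/N440K and 6 of 7 in +/N440K. At day 7 their sums went the other way, with 403 to 477 CPM in Tcf7 F/F:Vav1-Cre, against 656 to 769 in Tcf7 +/+, and 5 of 7 fell. The 7 mature αβ T markers summed to 740 to 825 CPM in D/N440K and 796 to 837 in +/N440K, against 770 to 820 in Bcl11b +/+. The sums overlap, but single markers moved both ways: 2 rose and 4 fell in D/N440K, and 3 rose and 3 fell in +/N440K. At day 7 the 7 markers summed to 529 to 581 CPM in Tcf7 F/F:Vav1-Cre, against 765 to 775 in Tcf7 +/+, and 2 rose and 4 fell.

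Markers of B and red blood cells summed to less than the γδ T, NK and ILC1 or mature αβ T lists. They were not below the 5 genes throughout: Cd8a was at 17.4 ± 2.77 CPM in D/N440K and Cd8b1 at 74.4 ± 7.16 CPM in Tcf7 +/+. Their part in the results was not tested. The 7 B-cell markers summed to 9.16 to 12.0 CPM in D/N440K and 13.9 to 21.7 in +/N440K, against 29.7 to 35.7 in Bcl11b +/+, with Ms4a1 and Pax5 at 0 in all 3 groups. At day 7 they summed to 43.5 to 56.6 CPM in Tcf7 F/F:Vav1-Cre, against 150 to 158 in Tcf7 +/+, and 5 of 6 tested fell. The 6 erythroid markers summed to 92.5 to 123 CPM in D/N440K and 11.8 to 26.9 in +/N440K, against 28.2 to 62.4 in Bcl11b +/+, and 3 of 4 tested rose in D/N440K. They summed to 8.48 to 12.1 CPM in Tcf7 F/F:Vav1-Cre, against 8.45 to 9.02 in Tcf7 +/+. The 6 markers of thymic epithelium lay between 18.0 and 38.4 CPM over all 11 libraries.

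The genes most like each of the 4 in pattern were those with the smallest root mean square distance between their 3 log2 fold changes (D/N440K and +/N440K over Bcl11b +/+, Tcf7 F/F:Vav1-Cre over Tcf7 +/+), among 10250 genes. For Cd4 they were Notch3 (0.34), Prrt1 (0.354) and Fam167a (0.388). For Cd8a they were 1700012B07Rik (0.306), Vdr (0.402), the vitamin D receptor, and Gm37856 (0.424). For Cd8b1 they were Unc5cl (0.564), Adcy6 (0.667) and Ptpn14 (1.01). For Cd24a they were Ptpn14 (0.269), Gm4258 (0.326) and Slamf6 (0.414). These distances are smaller than the SE of each Cd24a fold change (0.771 in +/N440K, 0.686 in D/N440K and 0.499 in Tcf7 F/F:Vav1-Cre), so their order is not settled. The genes compared had an average log2 CPM of 3 or more, and Cd24a itself was below that (2.78 at day 0 and 2.74 at day 7). The 2 Bcl11b fold changes share their +/+ libraries.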

How the data were processed

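RNA of CD24-negative, TCRβ-negative thymocytes was read from whole-gene counts that the authors deposited without normalization, and from deposited CPM tables that gave back the same counts (100% whole within 0.001). Libraries followed RamDA-seq with changes, per the labels' protocols. Tools named in the submitters' processing notes are STAR 2.7.3a, HTSeq 0.11.2, fastp 0.20.0, Picard 2.21.1, SAMtools 1.9 and edgeR, on GRCm38 (mm10); the strand and annotation of counting are not given in the sources used here, so antisense reads cannot be told apart. Positions and exon lengths are from GENCODE M21, in which 53706 of 53801 and 55230 of 55471 identifiers matched.

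The 5 genes, the lists and the naming of genes were chosen with earlier results of these data known. Each table was filtered with filterByExpr (minimum count 10), which kept 10910 and 12366 genes, scaled by TMM and fitted by edgeR 4.0.16 quasi-likelihood (R 4.3.3) with all groups of the table, leaving 3 residual degrees of freedom. Two-sided p-values were adjusted over all tested genes (Benjamini-Hochberg), with a call under 0.05. Intervals are 95%; those of read ratios and shares are exact and cover counting error only. Per list and comparison the 3 genes of lowest p could be named. Ptcra was left to ratios of summed reads. Alternatives were RLE scaling, other filters, DESeq2 1.42.0, limma 3.58.1 on voom values and on log2 (CPM + 1), only the groups compared, a replicate block, and each library left out. An unplanned refit on reads recovered from the deposited CPM used the same counts and so repeated the main fit. Figures used matplotlib 3.10.9. Labels number the replicates, but numbers did not pair libraries.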

Additional observations from a re-analysis of the deposited data

Results flagged for a closer look

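Effects of D/N440K (over Bcl11b +/+) and of Tcf7 F/F:Vav1-Cre (over Tcf7 +/+) differed by the test of the difference itself, in 1 edgeR model over 11 libraries, for Cd4, Cd8a and Cd8b1 but not for Cd24a. The test called 11.5% of all tested genes (5.83% below 0). For Cd4 the difference was -3.48 ± 0.316 on the log2 scale (edgeR adjusted p = 1.32e-08), with D/N440K lower in 2 of 2 libraries and Tcf7 F/F:Vav1-Cre higher in 3 of 3. For Cd8a it was -2.06 ± 0.278 (edgeR adjusted p = 6.54e-06) and for Cd8b1 -1.53 ± 0.432 (edgeR adjusted p = 0.0189), with both genotypes below their +/+ in every library. The Cd8b1 call did not hold with every library left out, where its size ranged from -1.66 to -1.26. For Cd24a the 95% interval of -2.01 to 1.97 allows large differences either way. Genotype, age and table cannot be told apart in these differences.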

How the results depend on the processing

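Of 147 log2 fold changes of the 4 tested genes under another setting 141 kept their direction and their side of the threshold, as did 114 of 136 with 1 library left out. The 136 include fits that left out a library of a group outside the comparison. Such a fit could change the filter, scaling and spread, but no read of the groups compared. The 147 include refits on reads recovered from the deposited CPM, for the 4 genes in the 4 comparisons between genotypes. Those reads equal the counts, so these refits could not differ from the main fit. The log2 fold changes that changed sign passed no test either way. They were the difference of effects on Cd24a (0.030 without a filter, and -1.15 to 0.54 with 1 library left out) and, between D/N440K and +/N440K with 1 library left out, Cd4 (-0.27 to 0.53) and Cd24a (-0.36 to 4.38, whose upper end has no read left in +/N440K and is no bound). Other settings ended the call of Cd24a in +/N440K (DESeq2 -3.13, adjusted p = 0.205), of Cd24a in D/N440K (DESeq2 -2.32, adjusted p = 0.356; limma on the authors' CPM -2.04, adjusted p = 0.0625) and of Cd8a between D/N440K and +/N440K (DESeq2 -1.16, adjusted p = 0.492; limma-voom -1.15, adjusted p = 0.0576). With 1 library left out, some fits also lost these 3 calls and that of the difference of effects on Cd8b1. Over all such fits the log2 values ranged from -3.35 to -1.71 for Cd24a in D/N440K and from -6.63 to -2.17 for Cd24a in +/N440K. They ranged from -1.31 to -0.99 for Cd8a between D/N440K and +/N440K, and from -1.66 to -1.26 for the difference of effects on Cd8b1. The cause was not tested. The number of genes called was 528 for D/N440K and 357 for +/N440K with DESeq2, against 1353 and 1101. Between D/N440K and +/N440K it was 58, and became 4 with DESeq2, 91 without a filter and 37 with a replicate block. For Tcf7 F/F:Vav1-Cre it was 2863, and 1606 without a filter. With 1 library left out it ranged from 726 (without Bcl11b +/+ replicate 1) to 1121 for +/N440K, from 25 (without D/N440K replicate 1) to 91 (without Bcl11b +/+ replicate 1) between the N440K genotypes, from 1700 (without Tcf7 F/F:Vav1-Cre replicate 3) to 4612 (without Tcf7 +/+ replicate 1) for Tcf7 F/F:Vav1-Cre, and from 861 to 2642 for the difference of effects. The replicate block changed no call of the 4 genes in the 4 comparisons between genotypes, where Cd8a between D/N440K and +/N440K came closest (edgeR adjusted p = 0.0499). It was not run for the difference of effects. Replicate numbers in the labels share only a number: deviations of same-numbered libraries correlated at -0.033 to 0.0097 at day 0 and at -0.112 and 0.0736 at day 7. Depth limits Cd24a and Ptcra most, since their groups rest on 1 to 36 reads.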
